A study of Mus musculus with 5 samples.

Results

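Picalm, Eps15, Agfg1 and Tom1 encode adaptor proteins that act between clathrin coats and endosomes. The deposited tables hold 7 cassette exons of these 4 genes among 6616 in all, 3 in Picalm, 2 in Tom1 and 1 each in Eps15 and Agfg1. A cassette exon is one that a transcript either includes or skips. The exons were chosen by gene name. Names came from matching exon and intron lengths to the mouse annotation GENCODE M21 and, where that failed, first from the files.

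Clathrin forms a lattice on the side of the plasma membrane and of endosomes that faces the cytosol. Adaptors tie that lattice to membrane lipids, to cargo and to each other. Picalm binds the membrane lipid PIP2, clathrin and small SNARE proteins of the VAMP family, and helps set the size of the coated pit. Eps15 is an early scaffold of the pit whose carboxy-terminal part binds the adaptor complex AP2. Agfg1 joins the SNARE Vamp7 to clathrin and AP2, and Tom1 acts on endosomes, where it binds ubiquitinated cargo, clathrin and Tollip. In the heart muscle cell, endocytosis and endosomal recycling are known for their part in moving glucose transporters, ion channels and growth factor receptors.

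RNA of the left ventricle of C57BL/6 mice aged 12 weeks was sequenced in 2 Control and 3 STZ samples. From 8 weeks of age the mice were injected for 5 days, Control mice with citrate buffer and STZ mice with 70 mg/kg a day of streptozotocin, a toxin of pancreatic beta cells that makes mice diabetic. The labels name no animal for a sample, so p-values measure the spread between these samples, which may be technical. The library codes in the tables could not be matched to sample titles. Their 2 and 3 codes were taken as Control A and B and STZ A, B and C from the group sizes alone. The codes also form 2 series that split as the groups do. What these series stand for is not given, and treatment cannot be told apart from them. Event reads, which are all reads counted on the exon events in all 6 tables, came to between 12692236 and 20963751 a library, fewer in each STZ than in each Control library.

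The exons on which the results turn are given here with the end of the exon before and the start of the exon after them. Capitals mark the cassette exon and the lower-case letters are the last and first 12 bases of its neighbours, 5′ to 3′ on the plus strand, as GENCODE M21 transcripts give them. The upstream neighbour of the Tom1 exon differs between transcripts, so that exon stands alone.
Picalm 150-nt exon, mm9 chr7:97330729-97330878: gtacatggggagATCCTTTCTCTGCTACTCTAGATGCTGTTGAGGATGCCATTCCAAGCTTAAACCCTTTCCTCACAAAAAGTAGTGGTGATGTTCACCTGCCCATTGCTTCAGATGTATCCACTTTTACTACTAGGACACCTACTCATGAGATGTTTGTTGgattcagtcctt
Picalm 24-nt exon, mm9 chr7:97342783-97342806: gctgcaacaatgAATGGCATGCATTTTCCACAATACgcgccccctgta
Agfg1 93-nt exon, mm9 chr1:82882950-82883042: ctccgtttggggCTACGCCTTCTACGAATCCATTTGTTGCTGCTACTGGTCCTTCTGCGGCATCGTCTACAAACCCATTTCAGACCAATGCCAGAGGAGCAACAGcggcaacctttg
Eps15 182-nt exon, mm9 chr4:109055390-109055571: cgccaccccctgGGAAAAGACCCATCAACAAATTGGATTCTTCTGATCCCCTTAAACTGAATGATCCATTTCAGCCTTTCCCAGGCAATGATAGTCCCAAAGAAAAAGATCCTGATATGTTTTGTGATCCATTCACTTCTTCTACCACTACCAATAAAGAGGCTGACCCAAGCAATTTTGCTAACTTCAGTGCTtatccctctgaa
Tom1 150-nt exon, mm9 chr8:77575407-77575556: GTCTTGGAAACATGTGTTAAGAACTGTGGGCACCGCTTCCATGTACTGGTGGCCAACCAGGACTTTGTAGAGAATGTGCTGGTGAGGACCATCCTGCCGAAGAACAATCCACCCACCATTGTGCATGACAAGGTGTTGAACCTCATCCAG

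The 3 Picalm exons, both Tom1 exons and those of Agfg1 and Eps15 are coding over their whole length in an annotated transcript. The Picalm exons of 150 and 24 nt, the Agfg1 exon and both Tom1 exons have lengths that are multiples of 3, so skipping keeps the reading frame. Without them the open reading frame of the transcript used falls from 655 to 605 and to 647 codons in Picalm, from 540 to 509 in Agfg1 and, for the 150-nt exon of Tom1, from 516 to 466. The event of that Tom1 exon matches 1 annotated transcript, Tom1-203, in which the exon was not coding over its whole length. The Tom1 counts come from Tom1-201, which does not have the event's pair of introns. The Eps15 exon of 182 nt is the last but one of its transcript and its length is not a multiple of 3. With it, 48 codons follow in the last exon. Without it, the shifted frame meets a stop codon that ends 11 bases into that exon. The annotation holds skipping transcripts for each of the 7 exons, 4 of them for the 150-nt exon of Picalm.

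Psi, as deposited by the authors, estimates which fraction of transcripts holds the exon. STZ was compared with Control on the logit of Psi in limma, fitted across 4769 exons, and an exon was called at a Benjamini-Hochberg adjusted p under 0.05. All 7 exons had enough reads to be tested. Inclusion rose at the 150-nt exon of Picalm and fell at the exons of Agfg1 and Eps15 and at the 150-nt exon of Tom1, 4 of 7 exons called where 15% of all tested exons were. The 1 call in the higher direction stands beside 4.84% of all tested exons, and the 3 in the lower direction beside 10.1%. The groups of libraries did not overlap in Psi at 5 of the 7, against 42.9% of all tested exons. The 4 genes were chosen with earlier results of these data known, so these counts do not test them against all exons. The 24-nt exon of Picalm missed the threshold, the 103-nt exon of Picalm was included in nearly all transcripts, and the 72-nt exon of Tom1 in almost none.

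**Figure D1:**
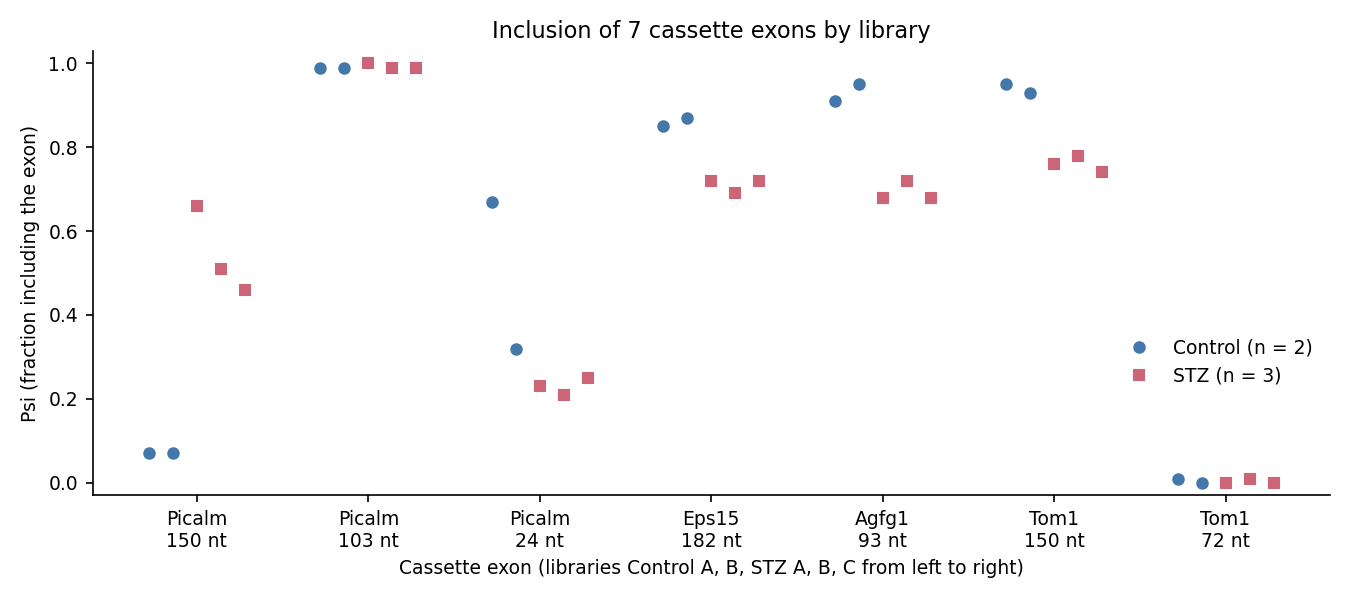
Psi (y axis, fraction from 0 to 1) of the 7 cassette exons (x axis) in each library, with Control as blue circles (n = 2) and STZ as red squares (n = 3). At the 150-nt exon of Picalm the STZ libraries sit at 0.46 to 0.66 above both Control libraries at 0.07, and at Eps15, Agfg1 and the 150-nt exon of Tom1 all STZ libraries sit below both Control libraries.

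The 150-nt exon of Picalm went from rare to frequent inclusion. Psi was 0.07 in Control A and in Control B, and 0.66, 0.51 and 0.46 in STZ A, STZ B and STZ C. All STZ libraries lay far above both Control libraries, and STZ A stood above the other STZ libraries. Mean Psi rose from 0.07 ± 0 (SD, n = 2) to 0.543 ± 0.104 (SD, n = 3), a change of 2.77 on the logit scale with a standard error of 0.29 (limma, adjusted p = 0.0177). It ranked 39th of 4769 by the size of the change of Psi. The difference of Psi was 0.39 to 0.59 in the authors' deposited table for every pair of libraries. It passed a rule asking for 0.20 or more, and for a Bayes factor of 10 or more, in each of the 6 pairs, as did 3.22% of all exons in the tables. With a library left out, the call was lost without Control A (adjusted p = 0.0926), Control B (0.0981) or STZ B (0.068).

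Reads of the including isoform made up most of this difference. MISO sorts reads into those that fit only the including isoform (inclusion-only), only the skipping isoform (exclusion-only), both or neither. Inclusion-only reads of the 150-nt exon numbered 94 and 109 in Control A and B and 3231, 1670 and 1134 in STZ A, B and C. Exclusion-only reads numbered 98 and 115 in Control A and B, and 185, 146 and 97 in STZ A, B and C. Scaled to 1000000 event reads a library (RPM), inclusion-only reads went from 5.34 ± 0.198 to 140 ± 67.3, a ratio of 26.3, and exclusion-only reads from 5.6 ± 0.161 to 10 ± 2.38, a ratio of 1.79. Every STZ library lay above both Control libraries in both classes. The inclusion share, which is inclusion-only reads over the sum of both classes and is not corrected for length as Psi is, was 0.49 and 0.487 in Control and 0.946, 0.92 and 0.921 in STZ. A quasi-binomial model of these reads called the exon as well (adjusted p = 1.35e-13), as it did 21.3% of all tested exons.

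**Figure D2:**
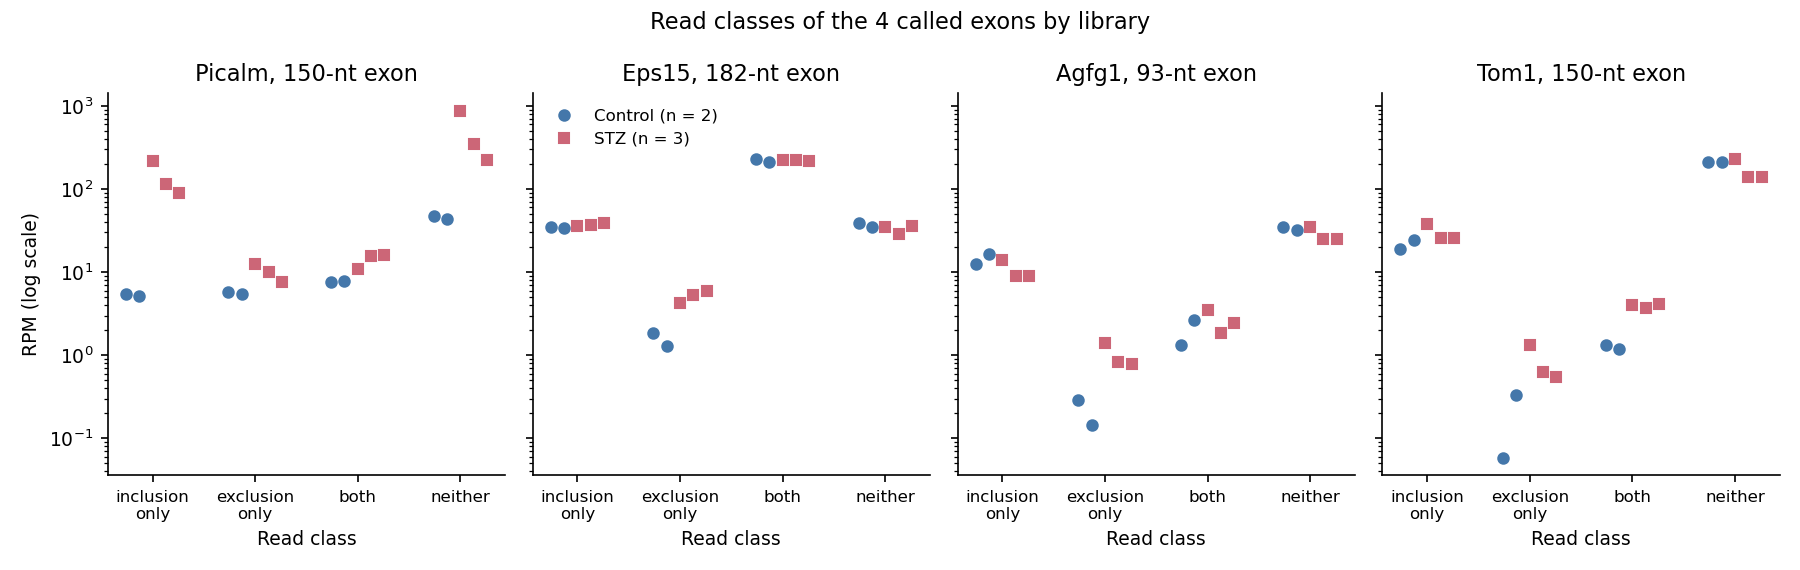
RPM (y axis, log scale) in the 4 read classes (x axis) of the 4 called exons, with 1 point a library, Control as blue circles (n = 2) and STZ as red squares (n = 3). Inclusion-only and neither reads of the Picalm exon are far higher in STZ, and exclusion-only reads are higher in every STZ library at each of the 4 exons.

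Reads on the Picalm events were more numerous in STZ altogether. Event reads in RPM at the 150-nt exon were 65.8 and 61.9 in Control A and B and 1116, 488 and 340 in STZ A, B and C. At the 103-nt exon, upstream in the gene, they were 86.3 and 79.9 in Control and 465, 242 and 177 in STZ. At the 24-nt exon, downstream in the gene, they were 233 and 220 in Control and 687, 600 and 433 in STZ. Every STZ library thus lay above both Control libraries at each of the 3 Picalm events, in the order STZ A, STZ B, STZ C. The groups did not overlap in event reads at 72.9% of all events, and the median event had a log2 ratio of -0.24. The ratio of the means was 10.2 at the 150-nt exon, 3.55 at the 103-nt exon and 2.53 at the 24-nt exon, and the first ranked 19th of 6331 events. An exact permutation test over the 10 ways to assign the libraries, two-sided, gave p = 0.2 for each, where the smallest it can give is 0.1. The log2 ratio at the 150-nt exon was 3.34, and 2.70 without STZ A, a fall in the ratio of over 1.5 times. The ratios differed between the 3 events, so event reads do not give a common level of Picalm RNA. In these bulk samples a difference in the number of cells that express Picalm and one in RNA per cell cannot be told apart.

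Most of the added reads at the 150-nt exon fitted neither isoform. Such reads made up 71.5% and 69.9% of event reads in Control A and B and 78.5%, 71.2% and 66.7% in STZ A, B and C, so the share lay in a like range and the libraries of the groups overlapped in it. In RPM they went from 45.1 ± 2.63 to 483 ± 345, and the STZ mean was 287 without STZ A. Over all tested exons the median share of reads that fit neither isoform was 52.6%.

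Some cell type markers also differed between the groups, while Postn and the sum of the leukocyte markers overlapped. The groups did not overlap in event reads at 72.9% of all events, so such a difference is common. Pecam1, an endothelial adhesion protein and the only endothelial marker of 6 with an event, had 563 to 639 RPM in Control and 1256 to 2166 in STZ. The smooth muscle markers with an event, 2 of 5, summed to 2602 to 2733 RPM in Control and 729 to 924 in STZ, where Smtn was lower and Myh11 higher in every STZ library than in both Control libraries. Those of heart muscle, 5 of 10, summed to 31422 to 32051 RPM in Control and 27047 to 31148 in STZ. Ttn, Tnnt2 and Ldb3, which encode sarcomere proteins of heart muscle, were abundant in every library. Postn, the 1 of 6 fibroblast markers with an event, was at 21.1 to 34.9 RPM in Control and 5.71 to 23.4 in STZ. The leukocyte markers, 2 of 5, summed to 37.3 to 44.7 RPM in Control and 29.7 to 66.4 in STZ, where Ptprc was lower and Cd68 higher in every STZ library than in both Control libraries. Tnnt3, the 1 of 6 skeletal muscle markers, was at 2.43 to 2.86 RPM in Control and 6.05 to 10.3 in STZ. Their part in the results on Picalm, Agfg1, Eps15 and Tom1 was not tested.

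**Figure D3:**
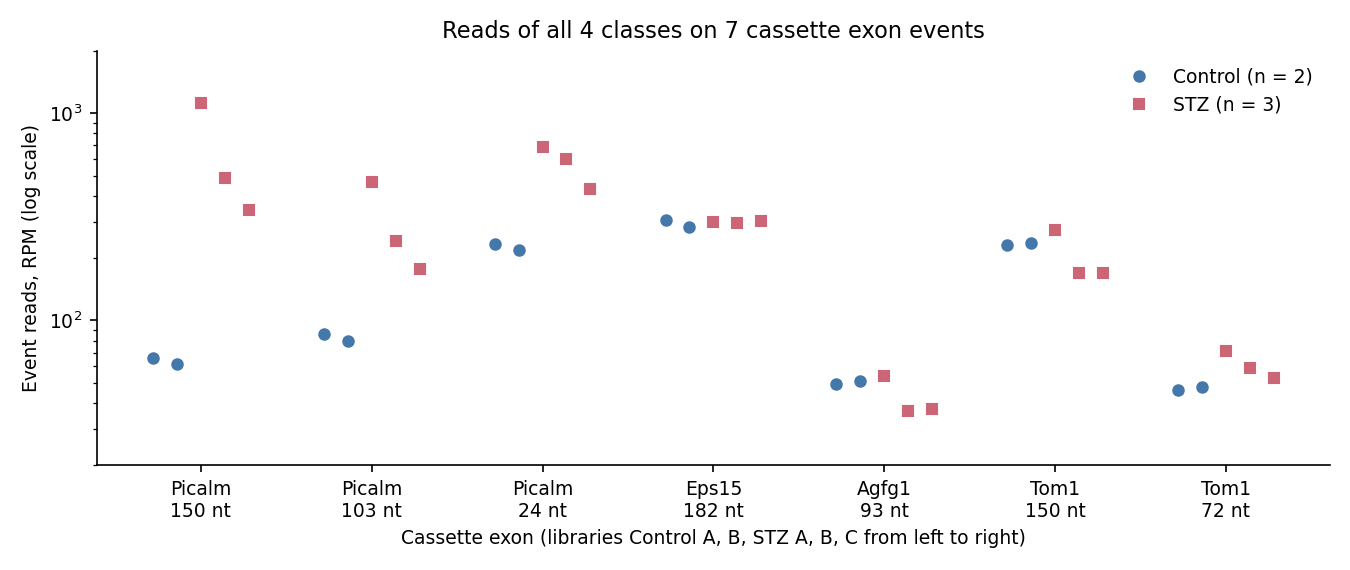
Event reads of all 4 classes in RPM (y axis, log scale) on the 7 cassette exon events (x axis), with 1 point a library, Control as blue circles (n = 2) and STZ as red squares (n = 3). The STZ libraries lie above both Control libraries at the 3 Picalm events and, by less, at the 72-nt exon of Tom1, and the groups overlap at Eps15, Agfg1 and the 150-nt exon of Tom1.

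At the 24-nt exon of Picalm the Control libraries stood apart from each other. Psi was 0.67 in Control A and 0.32 in Control B, and 0.23, 0.21 and 0.25 in STZ A, B and C. All STZ libraries lay below both Control libraries, with Control B far nearer to them than Control A. Mean Psi was 0.495 ± 0.247 in Control and 0.23 ± 0.02 in STZ (limma, adjusted p = 0.221). Informative reads were few, 58 and 39 in Control and 219, 151 and 100 in STZ, since 97.4% to 98.7% of event reads fitted neither isoform. Control A and B held 10 and 19 exclusion-only reads, and STZ A, B and C held 135, 99 and 59, higher in RPM in every STZ library. Inclusion-only reads were also higher in RPM in every STZ library. The ratio of the means was 2.21 for inclusion-only and 9.18 for exclusion-only reads. The model of reads called the exon lower (adjusted p = 0.00214), and limma did so without Control B (adjusted p = 0.0315). In the authors' deposited table the difference to STZ was 0.42 to 0.46 lower from Control A with a Bayes factor above 10, but 0.07 to 0.11 lower from Control B with a Bayes factor of at most 0.45.

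The 103-nt exon of Picalm, whose skipping would shift the reading frame, showed no skipping reads. Psi was 0.99 in both Control libraries and 1, 0.99 and 0.99 in STZ A, B and C (limma, adjusted p = 1). Control A and B held 741 and 825 inclusion-only reads, STZ A, B and C held 3002, 1627 and 1065, and there were 0 exclusion-only reads in any library. Along Picalm the exons of 150 and 24 nt thus differed in opposite directions in mean Psi, though only the first passed the test, while the 103-nt exon stayed near full inclusion in each library.

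At Eps15, the exon of 182 nt before the last exon was included less in STZ. Psi was 0.85 and 0.87 in Control A and B and 0.72, 0.69 and 0.72 in STZ A, B and C. All STZ libraries lay below both Control libraries, and the libraries of a group lay close together. Mean Psi fell from 0.86 ± 0.0141 to 0.71 ± 0.0173, a change of -0.92 on the logit scale with a standard error of 0.0814 (limma, adjusted p = 0.0134). Control A and B held 32 and 27 exclusion-only reads beside 591 and 722 inclusion-only reads. STZ A, B and C held 64, 77 and 76 beside 541, 532 and 498, so skipping reads were more numerous in every STZ library. In RPM, exclusion-only reads went from 1.58 ± 0.408 to 5.19 ± 0.853, a ratio of 3.29, and inclusion-only reads from 34.4 ± 0.00757 to 37.4 ± 1.62, a ratio of 1.08. Every STZ library lay above both Control libraries in each of these classes. In event reads all STZ libraries lay between Control B and Control A, at 293 ± 16.3 RPM in Control and 298 ± 3.45 in STZ (exact permutation test, p = 0.8). The model of reads called the exon too (adjusted p = 1.9e-05), while the limma call was lost without Control B (adjusted p = 0.0547) or STZ C (0.0538).

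At Agfg1, the in-frame exon of 93 nt was included less in STZ as well. It lies between a short upstream intron of 187 nt and a downstream intron of 6956 nt. Psi was 0.91 and 0.95 in Control A and B and 0.68, 0.72 and 0.68 in STZ A, B and C. Both Control libraries lay above all STZ libraries. Mean Psi fell from 0.93 ± 0.0283 to 0.693 ± 0.0231, a change of -1.81 on the logit scale with a standard error of 0.228 (limma, adjusted p = 0.0249). Skipping reads were few. Control A and B held 5 and 3 exclusion-only beside 212 and 344 inclusion-only reads, and STZ A, B and C held 21, 12 and 10 beside 211, 132 and 114. The share of inclusion-only reads moved less than Psi, from 0.984 ± 0.0102 to 0.915 ± 0.0051, and the model of reads called it (adjusted p = 0.00112). In the authors' deposited table the difference was 0.19 to 0.27 lower in STZ and the Bayes factor at least 10.6 in each comparison, so the exon missed the rule of 0.20 in 1 of the 6. Event reads were 49.2 and 51.1 RPM in Control and 54, 36.5 and 37.5 in STZ, with groups that overlap. The limma call was lost without STZ A (adjusted p = 0.0805), STZ B (0.0792) or STZ C (0.0922).

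Tom1 had a called exon of 150 nt, near the start of the coding region in Tom1-201, and an exon of 72 nt that was nearly always skipped. For the 150-nt exon Psi was 0.95 and 0.93 in Control A and B and 0.76, 0.78 and 0.74 in STZ A, B and C. The groups did not overlap, with all STZ libraries below both Control libraries. Mean Psi fell from 0.94 ± 0.0141 to 0.76 ± 0.02, a change of -1.61 on the logit scale with a standard error of 0.143 (limma, adjusted p = 0.0135). Reads that show skipping directly were scarce, at 1 and 7 exclusion-only beside 327 and 509 inclusion-only reads in Control A and B. STZ A, B and C held 20, 9 and 7 beside 569, 374 and 330. The share of inclusion-only reads moved only from 0.992 ± 0.00744 to 0.974 ± 0.00696, and the model of reads did not call the exon (adjusted p = 0.105). Reads that fit both isoforms went from 1.27 ± 0.105 to 3.92 ± 0.242 RPM, higher in every STZ library. Inclusion-only reads, too, were higher in every STZ library, at 21.7 ± 3.69 RPM in Control and 30.0 ± 7.10 in STZ, a ratio of 1.38. Most event reads fitted neither isoform, 91.2% and 89.1% in Control A and B. In STZ A, B and C this share was 84.0%, 82.4% and 81.9%, below both Control libraries. Its median over all tested exons was 52.6%. The limma call was lost without STZ A (adjusted p = 0.052), STZ B (0.0533) or STZ C (0.0553). The event pairs the exon with an upstream neighbour 17680 nt away, which 1 of the 4 annotated transcripts with the exon uses.

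The 72-nt exon of Tom1 had a Psi of 0.01 in Control A and STZ B and of 0 in the other libraries. Over all libraries, 1 inclusion-only read was seen in Control and 1 in STZ, beside 205 and 311 exclusion-only reads. Its inclusion was at or near the lower end of what the reads can show in both groups (limma, adjusted p = 1). Event reads were 46.2 and 48 RPM in Control and 71.3, 58.8 and 52.5 in STZ, somewhat higher in each STZ library (exact permutation test, p = 0.2).

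**Figure D4:**
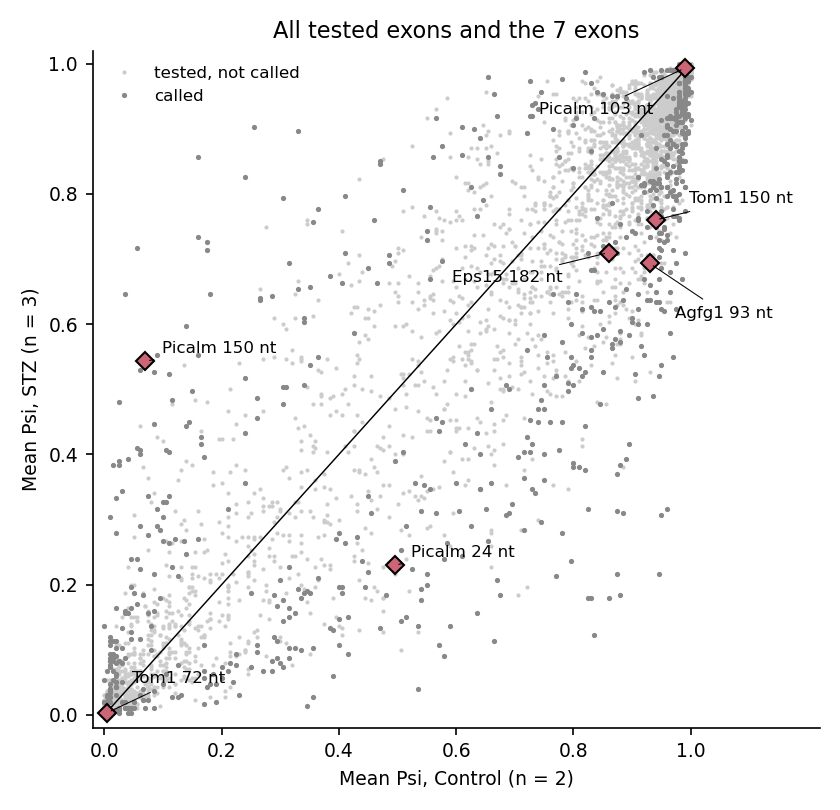
Mean Psi in STZ (y axis, n = 3) against mean Psi in Control (x axis, n = 2) for the 4769 tested exons, with called exons in dark grey, other tested exons in light grey, the 7 exons as red diamonds and the line of equal Psi in black. The 150-nt exon of Picalm lies far above the line at 0.07 and 0.543, and the exons of Eps15, Agfg1 and the 150-nt exon of Tom1 lie below it from a Control level of 0.86 to 0.94.

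The called exons differed in the features that the choice by gene name did not use. GC content was 42.7% for the 150-nt exon of Picalm and 40.1% for that of Eps15, with 18.8% and 12.1% of tested exons lower, and 50.5% for Agfg1 and 50.7% for the 150-nt exon of Tom1, near the median of 50% over 4361 tested exons with a sequence. The 103-nt and 24-nt exons of Picalm were poor in GC, at 32% and 37.5%. Of the 7 exons 5 have a length that is a multiple of 3, as do 45.7% of tested and 47.8% of called exons. The upstream and downstream introns were 4615 and 6781 nt at the 150-nt exon of Picalm, 2755 and 2352 nt at Eps15, and 17680 and 265 nt at the 150-nt exon of Tom1. The medians over tested exons were 1872 and 1730 nt.

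Exons of other coat genes were called at a share near that of all tested exons. Of 44 tested exons of clathrin, of adaptors, which here include AP4 and AP5 subunits, and of their kinases, 1 rose and 5 fell. That is 13.6% against 15% of all tested exons. The median change of Psi was -0.0133 against -0.01 over all tested exons. A 225-nt exon of Ap4b1, a subunit of the adaptor complex AP4, fell from 0.965 ± 0.0212 to 0.68 ± 0.0917 (limma, adjusted p = 0.0376). A 243-nt exon of Aak1, the kinase that phosphorylates AP2, fell from 0.54 ± 0.0141 to 0.313 ± 0.0404 (adjusted p = 0.0303 in limma). In Ap1b1, a subunit of AP1, a 21-nt exon fell from 0.615 ± 0.0212 to 0.417 ± 0.0416 (adjusted p = 0.0386 in limma) and a 160-nt exon rose from 0.01 ± 0 to 0.0833 ± 0.0153 (adjusted p = 0.00855). With a library left out, the calls of the Ap4b1 exon and of the 21-nt Ap1b1 exon were lost in each case, that of Aak1 in all but the case without STZ C, and that of the 160-nt Ap1b1 exon without either Control library. Over all 44 exons, 0 were called without Control B and 2 or 3 without any other single library.

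Genes that bend and cut the membrane had 1 exon that rose and 4 that fell of 35 tested, 14.3% against 15% of all tested exons, with a median change of -0.0117. The largest change among those called was at an 88-nt exon of Pik3c2a, a lipid kinase of coated pits, which fell from 0.23 ± 0.0424 to 0.03 ± 0 (limma, adjusted p = 0.00705). Reads of the including and skipping isoform summed to 30 and 32 in Control and to 3 and 58 in STZ. A 168-nt exon of Inpp5b, an inositol phosphatase, fell from 0.96 ± 0 to 0.857 ± 0.0252 (limma, adjusted p = 0.0185) with 0 exclusion-only reads in each group. The exons of Sh3glb2 (0.99 to 0.96) and Cd2ap (0.97 to 0.99) were called on changes of at most 0.03, with 0 exclusion-only reads at the first and 1 at the second. The model of reads called none of these 3 exons.

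Among genes of endosomal sorting, which cover the ESCRT complexes, the GGA adaptors and relatives of Tom1, 1 of 29 tested exons rose and 1 fell, 6.90% against 15% of all tested exons, and the median change was -0.0117. A 69-nt exon of Vps37a, a subunit of ESCRT-I, rose from 0.765 ± 0.0495 to 0.9 ± 0.01 (limma, adjusted p = 0.0349). The fall, in Chmp6, was from 0.99 to 0.97 with 0 exclusion-only reads. Genes of endosomal Rab proteins, tethers, SNAREs and retromer had 1 exon that rose and 6 that fell of 36 tested, 19.4% against 15% of all tested exons, with a median change of -0.0025. A 105-nt exon of Rabep1, an effector of Rab5 that also binds GGA adaptors, fell from 0.87 ± 0.0283 to 0.577 ± 0.0493 (limma, adjusted p = 0.0209). A 111-nt exon of Mtmr3, a phosphoinositide phosphatase, fell from 0.505 ± 0.0778 to 0.253 ± 0.0321 (limma, adjusted p = 0.0419). A 117-nt exon of Vps33b, a tether subunit, fell from 0.95 ± 0.0141 to 0.767 ± 0.0635 (limma, adjusted p = 0.0422), with 1 exclusion-only read in Control and 5 in STZ. In Vps29, a retromer subunit, a 12-nt exon rose from 0.08 ± 0 to 0.137 ± 0.0153 (limma, adjusted p = 0.0377). The model of reads called the exons of Vps37a, Rabep1 and Mtmr3. It did not call those of Chmp6, Vps33b (adjusted p = 0.284) and Vps29 (0.0812). The limma calls of Vps37a, Rabep1, Mtmr3 and Vps33b were each lost whichever library was left out, and that of Vps29 in all but the case without STZ C. Those of Pik3c2a, Cd2ap and Chmp6 were kept in each case, that of Inpp5b only without STZ B or STZ C, and that of Sh3glb2 only without STZ B. The numbers called with single libraries left out ran from 2 to 6 for the membrane list, 1 to 3 for sorting and 1 to 4 for the Rab list.

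**Figure D5:**
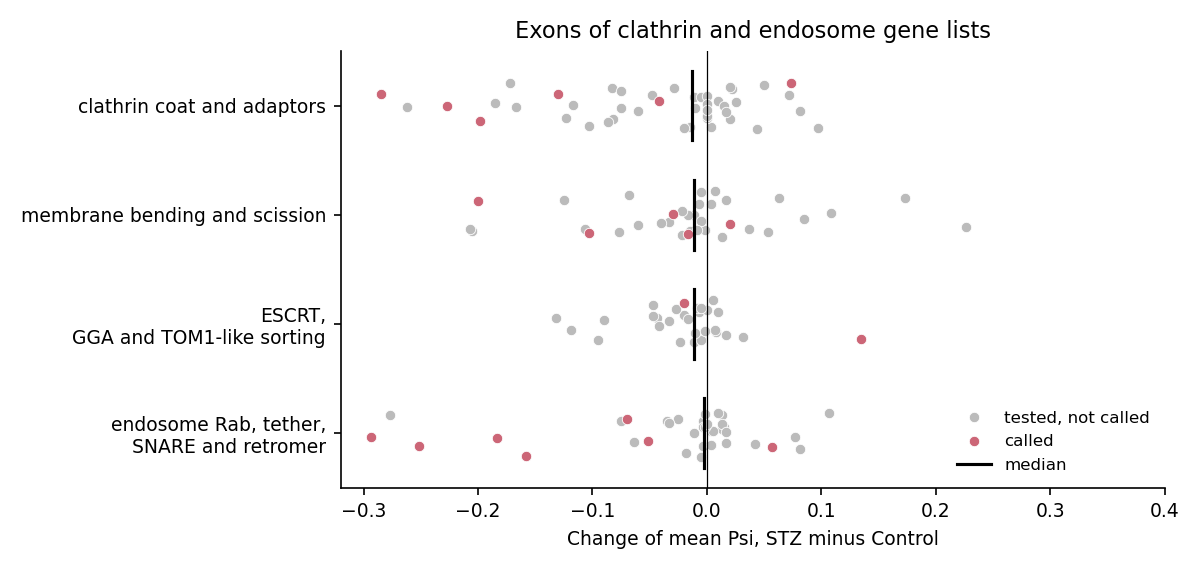
Change of mean Psi, STZ minus Control (x axis), of each tested exon in 4 gene lists (y axis), with called exons in red, other tested exons in grey and the median of a list as a black bar. The medians lie between -0.0133 and -0.0025, and most called exons lie to the left of 0.

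Close relatives of the 4 genes, which the lists on coats and on sorting also hold, had 8 tested exons, of which 0 were called in limma, against 15% of all tested exons, or in the model of reads, against 21.3%. The difference from those shares was not tested. The exon with most informative reads was at 0.95 ± 0 and 0.89 ± 0.0361 for Eps15l1 (limma, adjusted p = 0.146), at 0.965 ± 0.0212 and 0.953 ± 0.0208 for Agfg2 (0.688), at 0.94 ± 0.0283 and 0.95 ± 0.0173 for Tom1l1 (0.838) and at 0.77 ± 0.0283 and 0.777 ± 0.095 for Tom1l2 (0.968). Without STZ B the exon of Eps15l1 was called (adjusted p = 0.0415). Snap91, the relative of Picalm, had no event in the tables. Whether these exons differ in response from those of Picalm, Eps15, Agfg1 and Tom1 was not tested.

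The exons of other genes whose Psi was most like that of the 150-nt Picalm exon, by the root mean square difference over the 5 libraries, were in Tra2b (0.0329), Eif4a2 (0.05), Mbnl2 (0.0514), Srsf7 (0.0616) and Chfr (0.0639). The closest, a 276-nt exon of the splicing factor Tra2b, was at 0.07 and 0.05 in Control A and B and at 0.61, 0.55 and 0.43 in STZ A, B and C. For Agfg1 the most alike were exons of Egfl7 (0.02), Tmc6 (0.021), Eif4g2 (0.0316), Pank2 (0.0319) and Tspan4 (0.0335). The 65-nt exon of Egfl7, a protein secreted by endothelial cells, was at 0.93 and 0.97 in Control and at 0.7, 0.7 and 0.66 in STZ.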

How the data were processed

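Left ventricular RNA was sequenced on an Illumina instrument, per the labels' design text. The submitters' processing notes name CASAVA 1.8.2, TopHat and the build mm9; the versions of TopHat and MISO were not given in the sources used. Each of the 6 deposited tables compares 1 library with another in MISO format, per the file headers. The authors' Psi values are a fraction rounded to 2 decimals. The Bayes factor is deposited as a ratio, and the difference of Psi and the read counts in 4 classes as other values, per the file headers. Values of a library differed between tables in 0 cases. The tables hold 36 other columns of values per library, which were not used.

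Exons with at least 10 informative reads (inclusion-only plus exclusion-only) in every library were tested. Psi was clipped to 0.01 to 0.99 and its logit compared in limma 3.58.1 (R 4.3.3), two-sided, with a prior variance that follows informative reads. The quasi-binomial model moderates its dispersion across exons and sets it to at least 1. Both were tested on simulated data with changes set only at exons of intermediate Psi, so changes near either end of the scale were not covered. Of 6616 events, 5922 were named by lengths, 327 by the files, 204 by the skipping junction and 113 by a shared exon. RPM values are reads scaled to a library total of 1000000 over the 6331 events in all tables. The genes and lists were chosen with earlier results of these data known. In each list the 3 called exons with the largest change a direction are named. A marker's level in a library is the highest of its events. The 5 most alike exons and, for each relative, the exon with most informative reads are named.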

Additional observations from a re-analysis of the deposited data

How the results depend on the processing

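With clips of Psi at 0.001 or 0.05, at least 20 or no informative reads, untransformed Psi, array weights or 1 prior variance, the exons of Picalm (150 nt), Eps15, Agfg1 and Tom1 (150 nt) kept their call and direction. The model of reads did not call that of Tom1 (adjusted p = 0.105) and called the 24-nt exon of Picalm (0.00214); under the rule on differences in all 6 comparisons 204 of the 6331 events passed, 192 of them among the 4769 tested exons, of which limma called 713, and Agfg1, Eps15 and Tom1 missed it with smallest differences of 0.19, 0.13 and 0.15. With single libraries left out, which assumes for a lone Control library the spread of the others, 282 to 467 exons were called. The adjusted p then ran from 0.0146 to 0.0981 for the 150-nt exon and from 0.0315 to 0.411 for the 24-nt exon of Picalm, from 0.045 to 0.0547 for Eps15, from 0.0276 to 0.0922 for Agfg1 and from 0.031 to 0.0553 for the 150-nt exon of Tom1. Leaving out libraries gave 0 to 3 called exons on the clathrin list, 2 to 6 on the membrane list, 1 to 3 on the sorting list, 1 to 4 on the Rab list and 0 to 1 among relatives of the 4 genes. With Psi clipped at 0.05 these lists had 3, 2, 1 and 3 called exons, and with Psi untransformed the membrane list had 3 and the Rab list 4. From informative reads only, the log2 ratio of event reads was 2.01 in place of 1.34 at the 24-nt exon of Picalm, 0.19 in place of 0.02 at Eps15 and 0.45 in place of -0.20 at the 150-nt exon of Tom1, whose direction thus depends on the reads counted. The cause of these differences was not tested. No paired analysis was possible because the tables carry none of the replicate numbers of the labels.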
